A study of Mus musculus with 6 samples.

Results

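Ribosome biogenesis and nucleolar factors are described here in mouse KP cells with and without an induced hairpin against Npm1. A fixed list of 60 genes was taken by symbol: subunits and factors of RNA polymerase I, proteins of the small nucleolar ribonucleoproteins (snoRNPs), and factors that process pre-ribosomal RNA or assemble the subunits. All 60 were found among the 48526 gene identifiers in the files, and all 60 passed the filter on low counts that left 14531 genes for testing. The choice of genes used no measured value of these libraries, but the list was drawn up with earlier results on the same libraries known.

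Total RNA was sequenced from 3 stable lines, called line 3, line 4 and line 5 after their hairpins (N3, N4 and N5). Each line carried a Tet-on pLKO.1 vector with its own hairpin against Npm1 and had been selected with puromycin. The control group is the 3 lines grown without doxycycline, in which the vector is present and not induced, and the knockdown group is the same lines with 100 ng/ml doxycycline. The labels name the cells only as KP, do not say how long doxycycline was given, and do not say whether a line came from 1 clone. Each line has 1 library per condition, so the main test below sets a difference against the spread between lines. Fits with a term for the line set it against how unevenly the lines responded. For the response of line 3, only lines 4 and 5 give that measure. No library of doxycycline alone, with no hairpin against Npm1, was analysed here, so the drug itself and the knockdown cannot be told apart.

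The libraries held 24391198 to 27341036 counts in genes. Npm1, the targeted gene, was at 2002, 1851 and 1924 CPM (a gene's count scaled to a common library size) in lines 3, 4 and 5 without doxycycline, and at 67.8, 245 and 400 CPM with it, which follows the labels in every line. Line 3 kept the least Npm1. Markers of other cells also moved with the group: 12 of 15 macrophage markers were called higher, with a summed level of 53.3 to 56.1 CPM in the untreated and 148 to 300 CPM in the treated libraries. Of 15 lymphocyte markers, 12 were tested and 8 were called lower, with sums of 19.9 to 25.6 CPM and 5.90 to 9.38 CPM. Adgre1, a defining macrophage marker, was at 0 to 0.0385 CPM without doxycycline. Cd3d and Nkg7 had no counts with doxycycline and 1.11 to 1.45 and 1.27 to 1.88 CPM without it. Not all lymphocyte markers were lost: Trac was at 2.74 to 3.18 CPM with doxycycline. Of the 12 tested, 11 had log2 fold changes below 0 and 1 above, Il7r (1.71, edgeR adjusted p = 0.169). Ms4a1 had at most 1 count in any library. The labels name only KP cells, and whether other cells were present or the KP cells held this RNA was not tested. In bulk RNA, fewer cells of a type and less RNA per cell cannot be told apart. The part of these markers in any result below was not tested. The 6 epithelial markers were all tested and all had log2 fold changes below 0, from -1.23 to -0.10, with summed levels of 10121 to 12107 CPM untreated and 8898 to 10606 CPM treated. Of these Cldn4, a tight junction gene, was called lower (log2 fold change -1.23, adjusted p in edgeR = 0.0325), and their part in the results was not tested either.

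Ribosomes are built in the nucleolus, where RNA polymerase I makes a long precursor RNA that is folded, chemically modified, cut and joined to ribosomal proteins. Box C/D snoRNPs guide methylation of that RNA and box H/ACA snoRNPs guide its pseudouridylation, while many other factors act in turn on the precursors of the small and the large subunit. Nucleophosmin, the product of Npm1, is an abundant protein of the outer layer of the nucleolus, where late steps of large subunit assembly take place. Many genes of this group are known to be expressed together with cell growth.

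Levels of these genes can be compared with each other only per length, as CPM per kilobase of exon averaged over the 6 libraries. The length used is that of all annotated exons of a gene merged, which can exceed that of the transcript expressed. It was 1146 bases for Nhp2 and 1109 for Nop10, but 10188 for Ncl, which had rank 11 (46.3). Ranks therefore depend on the annotation. On that scale Nhp2 (186) and Nop10 (178) were highest, and both encode small core proteins of the box H/ACA snoRNP. Their libraries overlapped, so their order is not set beyond the spread. Brix1 (117), a large subunit assembly factor, Polr1c (94.8), a subunit shared by RNA polymerases I and III, and Nop56 (88.2), a core protein of box C/D snoRNPs, followed. Utp20 (1.29), Rrp12 (2.17) and Polr1a (2.87), which encode large proteins, were lowest. Counts were ample for every gene: the lowest in any library was 148 and the highest 16000. The 60 genes together took 5528, 5527 and 5816 CPM in lines 3, 4 and 5 without doxycycline and 6460, 5981 and 6568 CPM with it.

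**Figure D1:**
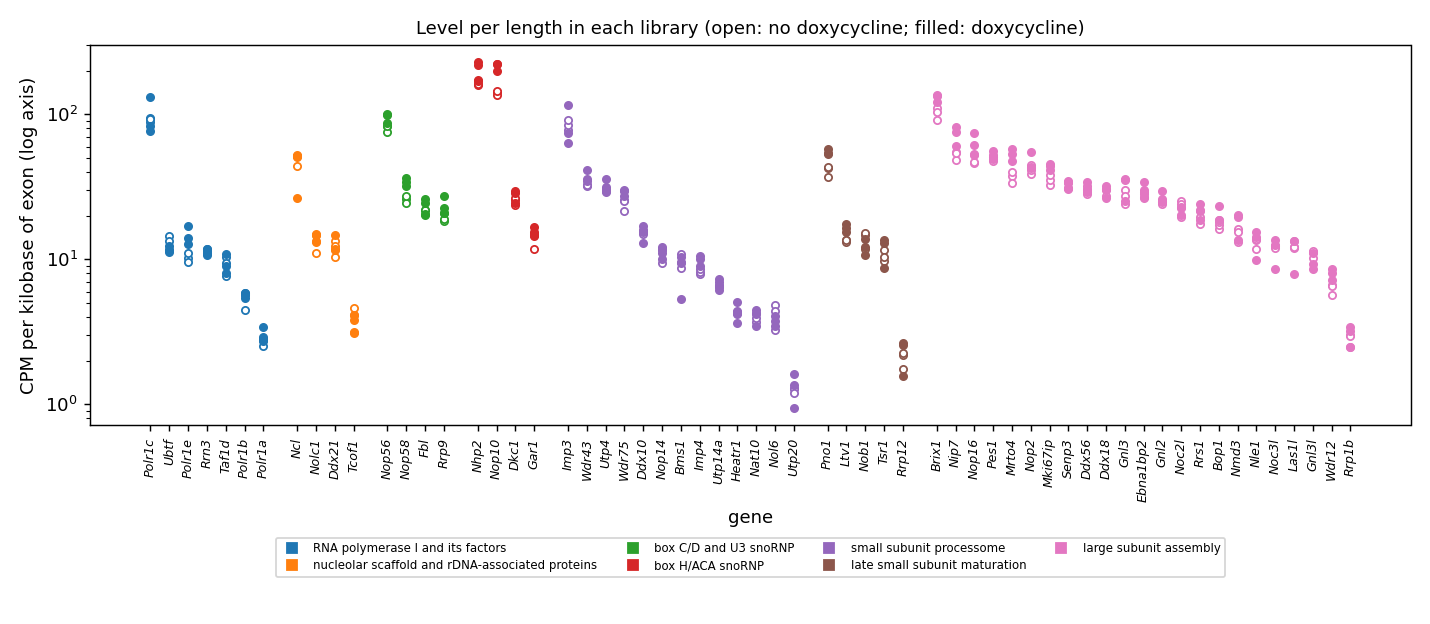
Level of each gene in CPM per kilobase of exon (log axis), 1 point per library, open without and filled with doxycycline, coloured by role. Nhp2 and Nop10 lie highest and Utp20 lowest, and for most genes open and filled points lie close together.

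With doxycycline the group as a whole was slightly higher, and single genes hardly stood out from the spread between lines. Of the 60 log2 fold changes, 48 were above 0, against 50.4% of all genes tested. Their median was 0.11, against 0.00 over all genes tested, and they ran from -0.21 for Ncl to 0.60 for Nop10. Only Nop10 was called (quasi-likelihood test of edgeR, p under 0.05 after Benjamini-Hochberg adjustment over all genes), which is 1 of 60 higher and 0 lower. Over all genes tested 0.963% were called higher and 1.32% lower, 2.28% in all, so 1 call among 60 genes is near the background. At an unadjusted p under 0.05, 12 genes were higher and 0 lower, where the test gave 8.33% higher and 7.96% lower over all genes. DESeq2 called 4 of the 60 higher (Nop10, Mrto4, Polr1e and Pno1) and 0 lower, with 2.26% and 2.69% of all genes called higher and lower by that tool. With the line as a block, 0 of the 60 and 1.67% of all genes were called, and with offsets for length and GC content 0 of the 60 and 2.08%. At a mean of at least 5 CPM these were 0 of the 60 and 0.481%, without the filter 2 (Nop10 and Mrto4) and 3.9%, and at an adjusted p under 0.1 the same 2 and 4.08%. Without the treated library of line 3 they were 4 (Nop58, Nop10, Pno1 and Mrto4) and 10.4%.

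A second description counts genes whose 3 libraries with doxycycline all lay above the 3 without. This held for 17 of the 60 genes (28.3%), against 11.3% of all genes tested. The opposite order held for 0 of the 60, against 11.2% of all genes. The 17 were spread over most roles: Polr1e, Nop56, Nop58, Nop10, Wdr43, Wdr75, Imp4, Ltv1, Pno1, Nop16, Bop1, Wdr12, Brix1, Mrto4, Nip7, Gnl2 and Mki67ip. Scaled to total counts in place of TMM, the number was 21 (35.0%, against 12% of all genes). Within the lines, 22 genes were above 0 in all 3 (36.7%, against 19.1% of all genes) and 2, Ubtf and Ncl, were below 0 in all 3 (against 19.5% of all genes).

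**Figure D2:**
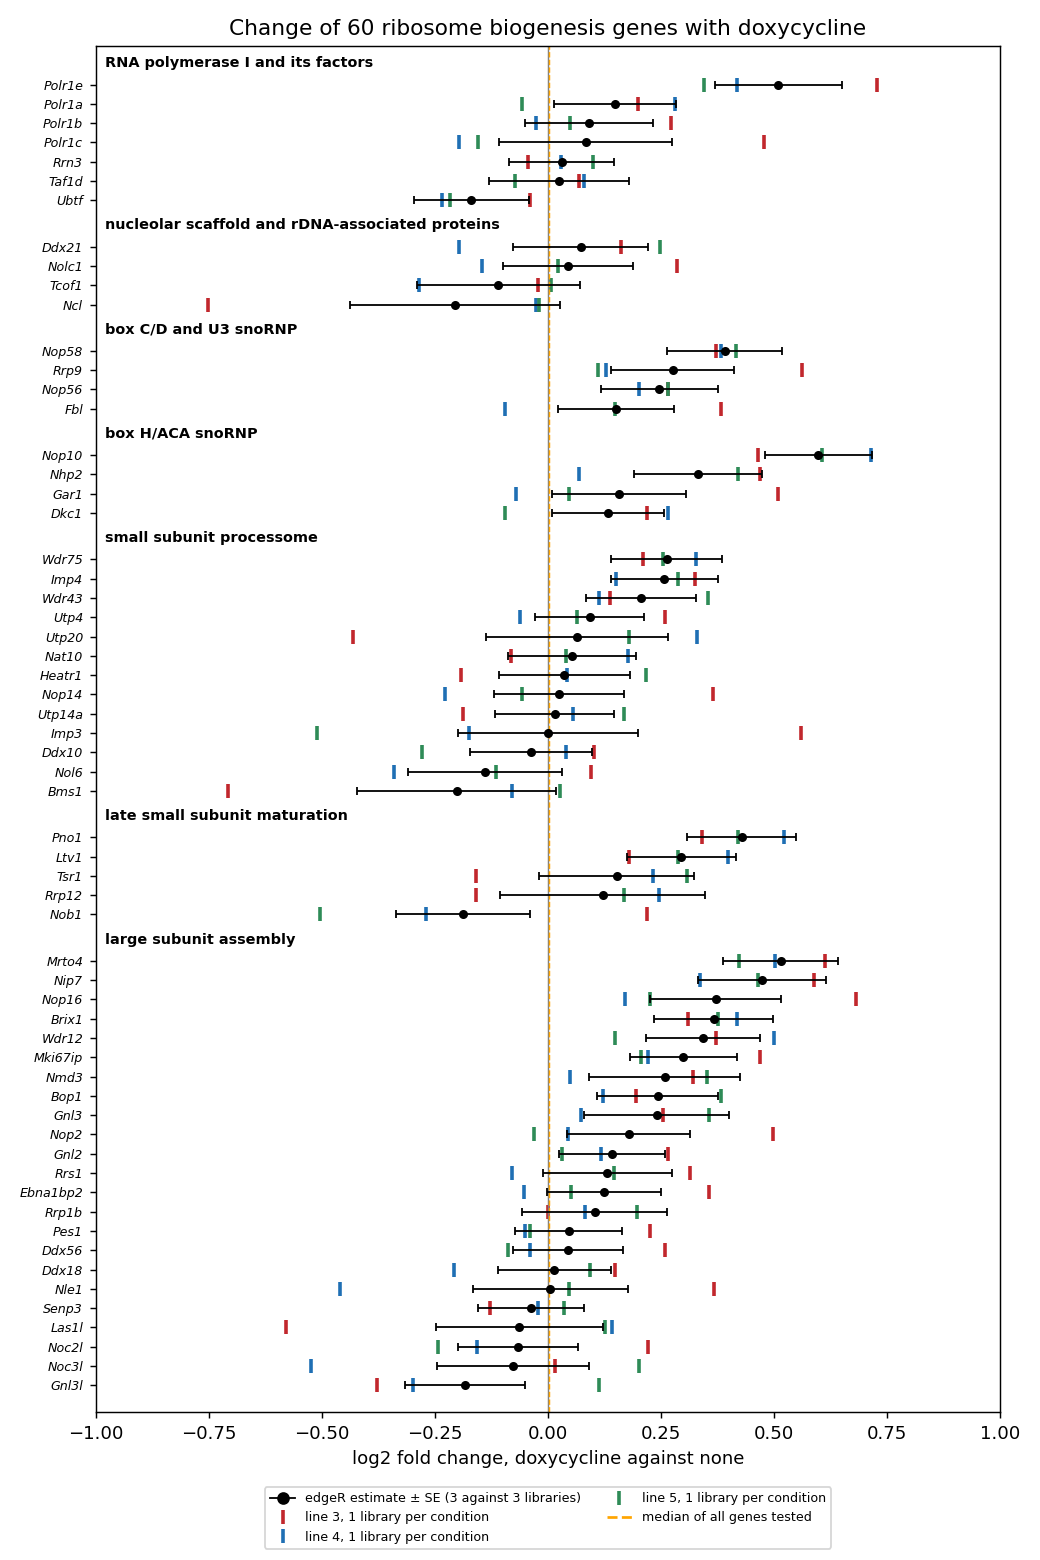
Log2 fold change of each of the 60 genes with doxycycline, ordered within roles; black points are edgeR estimates with SE from 3 against 3 libraries, and coloured ticks are the ratios within lines 3, 4 and 5. Most points lie right of 0, Nop10 is highest at 0.60, and line 3 stands far from the other lines for Ncl, Bms1, Las1l and Imp3.

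Box H/ACA snoRNP genes held the gene that passed. Nop10 (ENSMUSG00000027133, mm10 chr2:112261926-112263269, plus strand) encodes a small core protein of that particle, which also belongs to telomerase. It was at 159, 150 and 161 CPM in lines 3, 4 and 5 without doxycycline and at 220, 247 and 246 CPM with it. The groups did not overlap, and the rise was smallest in line 3. It rose from 157 ± 5.88 to 237 ± 15.2 CPM (SD, n = 3 each; log2 fold change 0.60 with SE 0.12, adjusted p in edgeR = 0.0303). With the line as a block the estimate was the same and the call was lost (log2 fold change 0.60, edgeR adjusted p = 0.0597). The call was also lost when any library other than the treated one of line 3 was left out (edgeR adjusted p = 0.0518 to 0.225, log2 fold change 0.56 to 0.62). Without the treated library of line 3 it was kept (edgeR adjusted p = 0.0039).

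The other members of the particle had smaller differences. Nhp2 was at 182, 186 and 197 CPM without doxycycline and 253, 195 and 264 CPM with it (log2 fold change 0.33 with SE 0.14, adjusted p in edgeR = 0.283). Lines 3 and 5 were high with doxycycline, and the treated library of line 4 lay within the untreated range. Dkc1, the pseudouridine synthase, had a log2 fold change of 0.13 (with SE 0.12, adjusted p in edgeR = 0.655), and Gar1, its partner, one of 0.16 (with SE 0.15, adjusted p in edgeR = 0.664). Summed over the 4 genes, the level was 460 to 491 CPM untreated and 584 to 637 CPM treated, a difference of 33.6%, 26.9% and 29.5% in lines 3, 4 and 5.

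Box C/D snoRNP genes had the highest median of the roles, 0.26 over 4 genes, all above 0 and none called. Nop58, a core protein of the particle, was at 282, 263 and 295 CPM without doxycycline and 365, 343 and 394 CPM with it. Its groups did not overlap and its 3 lines gave nearly the same ratio (log2 fold change 0.39 with SE 0.13, adjusted p in edgeR = 0.16). Its partner Nop56 was at 340, 310 and 342 CPM and at 409, 357 and 411 CPM, again without overlap (log2 fold change 0.25 with SE 0.13, adjusted p in edgeR = 0.386). Snord57 and other annotated genes share 8.12% of its exonic bases. Rrp9, a protein of the particle that guides early cuts of the precursor, had a log2 fold change of 0.28 (SE 0.14), and fibrillarin (Fbl), the methyltransferase, one of 0.15 (SE 0.13).

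RNA polymerase I genes had a median of 0.08 over 7 genes, with 6 above 0 and none called. Their median with offsets for length and GC content was 0.01. Polr1e, a subunit of the polymerase, was the exception in size: it was at 39.9, 37.3 and 43.2 CPM without doxycycline and 66.3, 50.0 and 55.0 CPM with it. Its groups did not overlap and line 3 was highest (log2 fold change 0.51 with SE 0.14, adjusted p in edgeR = 0.106). The large catalytic subunits Polr1a and Polr1b had log2 fold changes of 0.15 (SE 0.14) and 0.09 (SE 0.14). Ubtf, the factor that binds ribosomal DNA along its length, was at 76.2, 95.7 and 88.4 CPM without doxycycline and 74.1, 81.3 and 76.0 CPM with it (log2 fold change -0.17 with SE 0.13, adjusted p in edgeR = 0.562). Rrn3, which makes the polymerase competent to start, had a log2 fold change of 0.03 (SE 0.12), and Taf1d, of the promoter selectivity factor, one of 0.02 (SE 0.15). Other annotated genes share 13.6% of the exonic bases of Taf1d.

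Proteins of the nucleolar scaffold and of ribosomal DNA, 4 genes with a median of -0.03 and none called, had 2 above 0 and 2 below. Nolc1, a chaperone of snoRNPs, had a log2 fold change of 0.04 (SE 0.14), and Ddx21, an RNA helicase, one of 0.07 (SE 0.15). Tcof1, which encodes treacle, a partner of RNA polymerase I, was at 16.6, 24.5 and 21.7 CPM untreated and at 16.3, 20.1 and 21.8 CPM treated (log2 fold change -0.11 with SE 0.18, adjusted p in edgeR = 0.825). With offsets for length and GC content the median of the 4 was 0.10, with Tcof1 at 0.13 and Ncl alone below 0. The lowest of the 4, Ncl, is described with the lines below.

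Genes of large subunit assembly, the largest role with 23 members, had a median of 0.13, with 18 above 0 and none called. Mrto4, which is needed to place the stalk of the large subunit, was at 97.8, 88.1 and 104 CPM without doxycycline and 150, 125 and 139 CPM with it. Its groups did not overlap (log2 fold change 0.51 with SE 0.13, adjusted p in edgeR = 0.072, and 0.0343 without the treated library of line 3). Nip7, an RNA-binding assembly factor, was at 171, 151 and 171 CPM and at 258, 191 and 236 CPM, also without overlap (log2 fold change 0.47 with SE 0.14, adjusted p in edgeR = 0.133). Brix1 was at 301, 250 and 284 CPM and at 373, 334 and 368 CPM (log2 fold change 0.37 with SE 0.13, adjusted p in edgeR = 0.2).

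The complex of Pes1, Bop1 and Wdr12, which acts in the maturation of the large subunit RNA, was uneven. Wdr12 was at 79.6, 68.0 and 78.2 CPM without doxycycline and 103, 96.4 and 86.8 CPM with it (log2 fold change 0.34 with SE 0.13, adjusted p in edgeR = 0.211), and Bop1 had a log2 fold change of 0.24 (SE 0.13). Pes1 had one of 0.05 (SE 0.12). None of the 3 passed, and differences between them were not tested. Senp3, a SUMO protease of the nucleolus that is known to act on nucleophosmin, was at 124, 113 and 123 CPM and at 114, 112 and 126 CPM (log2 fold change -0.04, SE 0.12).

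Small subunit processome genes, which act on the earliest precursor, had a median of 0.04 over 13 genes, with 10 above 0 and none called. Their median with offsets for length and GC content was 0.08. The 3 whose groups did not overlap, all higher with doxycycline (23.1%, against 11.3% of all genes), were Wdr43, Wdr75 and Imp4. Their log2 fold changes were 0.21, 0.26 and 0.26 (SE 0.12 for each). Wdr75 was at 125, 106 and 124 CPM without doxycycline and 145, 133 and 148 CPM with it (edgeR adjusted p = 0.326).

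Among the 5 genes of late small subunit maturation, none was called in the main test. The estimate was above 0 for Pno1 and below 0 for its partner Nob1, but in line 3 both were higher with doxycycline. A difference between these genes was not tested. Pno1, an RNA-binding protein that holds the last precursor of the small subunit RNA, was at 73.2, 63.6 and 74.1 CPM without doxycycline and 92.8, 91.5 and 99.4 CPM with it. Its groups did not overlap (log2 fold change 0.43 with SE 0.12, adjusted p in edgeR = 0.109, and 0.0377 without the treated library of line 3). Nob1, the endonuclease that makes the last cut of that RNA, was at 41.2, 51.5 and 53.0 CPM and at 48.0, 42.6 and 37.2 CPM, with overlap (log2 fold change -0.19 with SE 0.15, adjusted p in edgeR = 0.587). Ltv1, which accompanies the precursor out of the nucleus, was at 31.7, 30.8 and 31.3 CPM and at 35.9, 40.7 and 38.4 CPM (log2 fold change 0.29 with SE 0.12, adjusted p in edgeR = 0.262). Tsr1 had a log2 fold change of 0.15 (SE 0.17), and 32.3% of its exonic bases overlap Srr on the opposite strand.

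**Figure D3:**
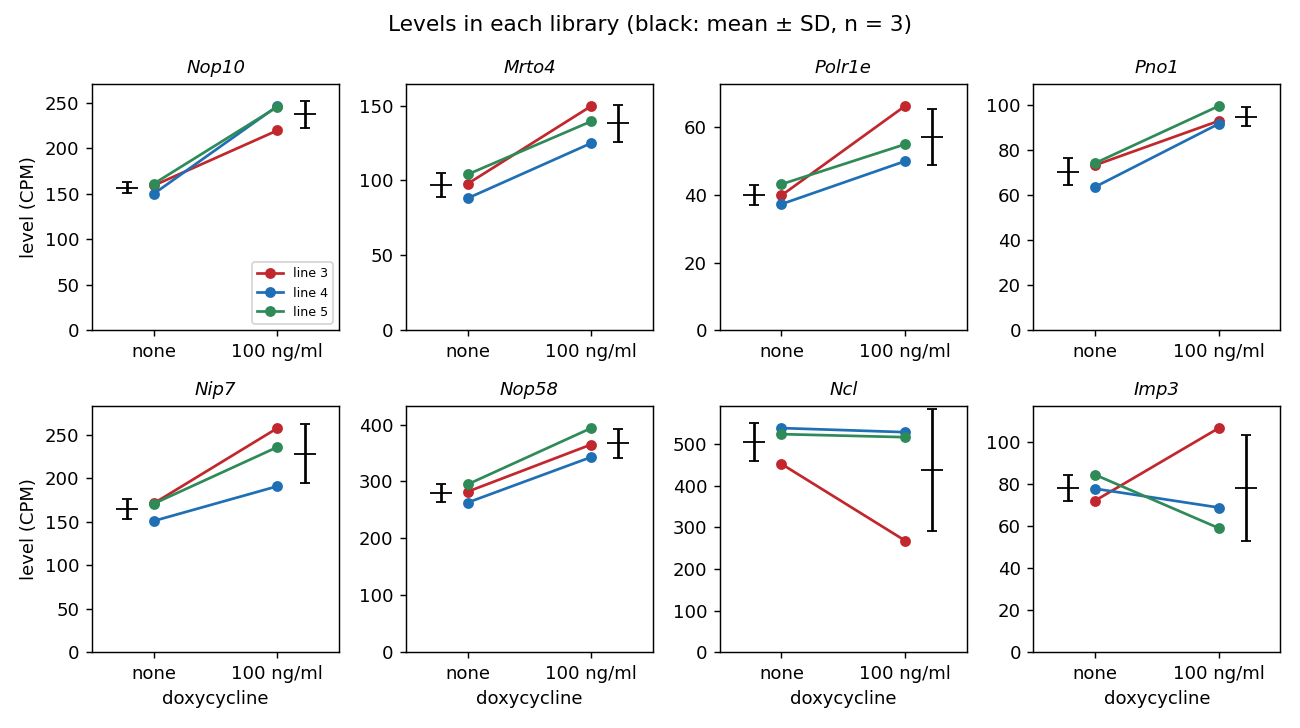
Level in CPM of 8 genes without and with 100 ng/ml doxycycline; coloured points joined by a line are the 2 libraries of a line, and black bars are mean ± SD of 3 libraries. The first 6 genes are higher with doxycycline in every line, whereas Ncl is lower mainly in line 3 and Imp3 is higher only in line 3.

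Within single lines the values of the group were uneven, but a difference between lines in the response was not shown by the test given below. The median log2 ratio of the 60 genes was 0.24, 0.05 and 0.12 in lines 3, 4 and 5, with 46, 35 and 45 genes above 0 under TMM scaling, while the median of all genes was 0.00, -0.01 and 0.00. These ratios come from 1 library per condition and have no replicate check within a line. In line 3, 4 genes were past 1.5-fold higher (Polr1e, Nop16, Mrto4 and Nip7, against 6.51% of all genes) and 2 lower (Ncl and Bms1, against 9.36%). In lines 4 and 5, Nop10 alone was past 1.5-fold higher (against 9.61% and 5.17% of all genes), and 0 were past it lower (against 10.4% and 7.66%). The shares of members past 1.5-fold were thus near or below those of all genes.

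Ncl, which encodes nucleolin, was at 452, 538 and 524 CPM without doxycycline and 268, 529 and 516 CPM with it. The treated library of line 3 stood far below the other 5. Bms1, a GTPase of the small subunit processome, was at 42.6, 52.9 and 46.0 CPM and at 25.9, 50.1 and 46.9 CPM. Las1l, an endonuclease that cuts the spacer of the large subunit precursor, was at 97.1, 98.8 and 99.4 CPM and at 64.8, 109 and 109 CPM. All 3 were low in the same library. Imp3, which binds the snoRNA at the core of the processome, went the other way: it was at 72.1, 77.7 and 84.3 CPM and at 107, 68.8 and 59.0 CPM. Polr1c was at 216, 201 and 212 CPM and at 300, 176 and 190 CPM, likewise high in line 3 alone. The log2 difference of the response in line 3 from that in lines 4 and 5 was -0.73 for Ncl (SE 0.18, edgeR adjusted p = 0.151) and 0.91 for Imp3 (SE 0.23, edgeR adjusted p = 0.152).

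That test, with 1 residual degree of freedom, called 0 of the 60 genes and 0% of all genes. At an unadjusted p under 0.05 it gave 9 of the 60 (15.0%), against 17% of all genes, so the group did not stand apart in this respect. DESeq2 called 0 of the 60 and 0.337% of all genes, and edgeR without the filter on low counts called Ncl and Imp3 and 3.19% of all genes. The same treated library of line 3 had the largest share of reads that did not align uniquely, 37.8% against 31.4% to 34.6% in the others.

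**Figure D4:**
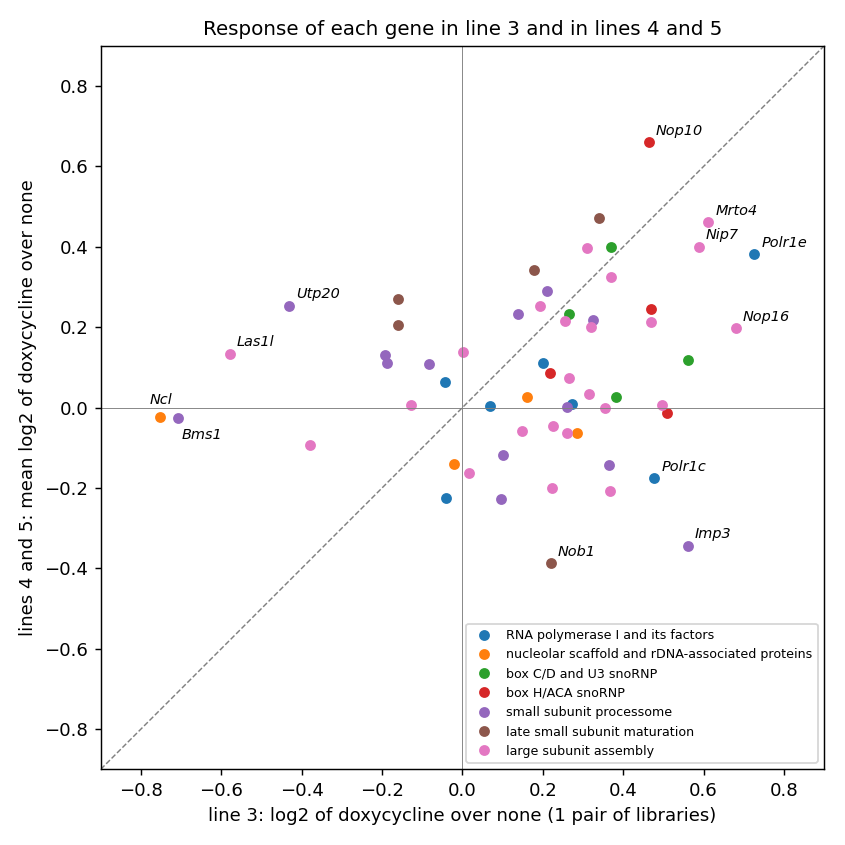
Log2 of the level with over that without doxycycline (0.5 CPM added) for each of the 60 genes, in line 3 (x axis, 1 pair of libraries) and as the mean of lines 4 and 5 (y axis), coloured by role; the dashed line marks equal response. Ncl, Bms1 and Las1l lie far to the left, Imp3, Polr1c and Nob1 lie at the lower right, and Nop10, Mrto4, Nip7 and Polr1e are high on both axes.

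Differences between lines that do not depend on doxycycline were also tested, and 0 of the 60 genes and 0% of all genes were called (edgeR, both line terms). At an unadjusted p under 0.05 there were 3 of the 60, Bms1, Ncl and Nmd3, against 4.59% of all genes, and DESeq2 called 0 of the 60 and 0.11% of all genes. Without the untreated library of line 3, edgeR called Ncl and 2.22% of all genes. Nmd3, the export adaptor of the large subunit, was lowest in line 4 in both conditions, at 133 and 138 CPM against 157 to 205 CPM in the other lines (edgeR adjusted p = 0.868). Taf1d was likewise lowest in line 4, at 68.6 and 72.5 CPM against 80.6 to 96.8 CPM.

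The summed level of the 60 genes was higher with doxycycline in each line, but the order of the lines depended on the scaling. With TMM scaling the difference was 16.9%, 8.22% and 12.9% in lines 3, 4 and 5. Scaled to the total counts in genes it was 7.83%, 18.7% and 18.6%, so that line 3 went from the largest to the smallest. The TMM factors of the treated libraries of lines 3, 4 and 5 were 0.896, 1.109 and 1.04. Statements above on line 3 as the line with the highest median therefore hold under TMM scaling.

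Transcript length moved with the fold changes, in this group and over all genes. The 20 genes with the shortest longest-annotated transcripts (924 to 2411 bases) had a median log2 fold change of 0.15, the middle 20 one of 0.13 and the 20 longest (3998 to 10012 bases) one of 0.06. All genes tested in the same 3 length ranges had medians of 0.07, -0.01 and -0.06. With offsets that take out each library's trend on length and on GC content, the medians of the 60 genes were 0.16, 0.11 and 0.11, and that over all 60 was 0.13, against 0.01 over all genes. The median of the group was thus as large with the offsets as without them. Single genes changed more: Nop10, whose longest transcript has 1109 bases, went from 0.60 to 0.39 (edgeR adjusted p = 0.167, or 0.155 when the fit also had the line as block). Pno1 went from 0.43 to 0.22, while Mrto4 (0.48, edgeR adjusted p = 0.0534), Polr1e (0.54, edgeR adjusted p = 0.0723) and Nip7 (0.42) kept most of their size. With the offsets 10 of the 60 genes changed sign (Polr1c, Taf1d, Tcof1, Utp14a, Nol6, Imp3, Nop14, Noc2l, Ddx18 and Senp3), and Ubtf went from -0.17 to -0.01. None of these 11 passed the test either way. The annotated transcript need not be the one expressed.

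**Figure D5:**
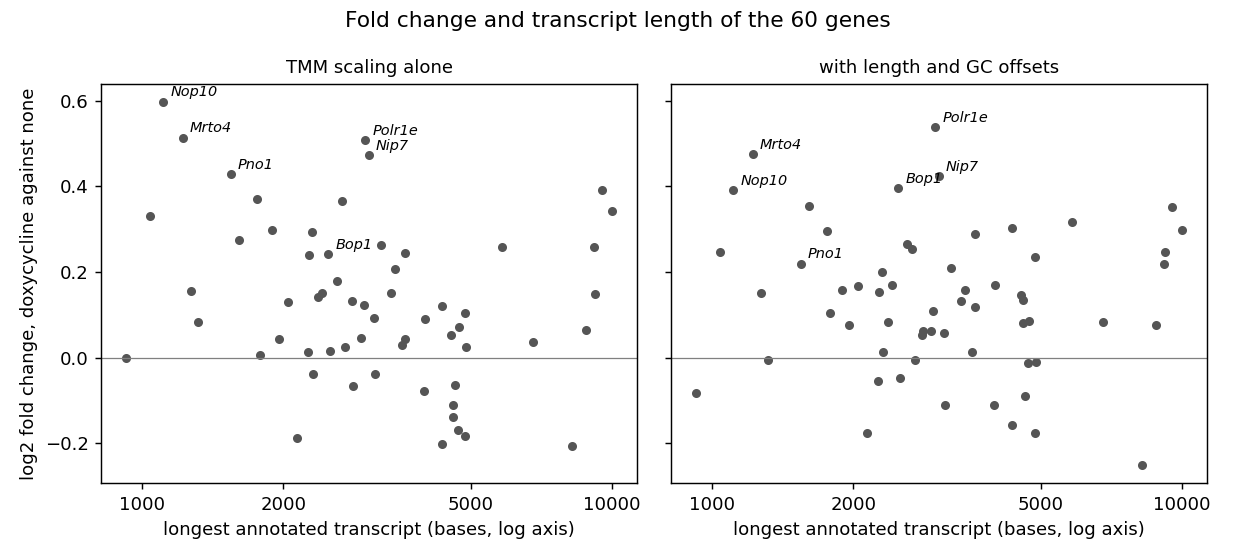
Log2 fold change with doxycycline of each of the 60 genes against the length of its longest annotated transcript (log axis), with TMM scaling alone (left) and with offsets for length and GC content (right). Nop10 goes from 0.60 to 0.39 and Pno1 from 0.43 to 0.22 with the offsets, whereas Polr1e and Mrto4 stay near 0.5.

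The other genes of the pathway, a list of 104 of which 103 were found and 102 tested, were described in the same way, and no test compared the lists. They include further RNA polymerase I subunits, snoRNP assembly factors, processome and large subunit factors and the exosome, which trims precursor RNA. Of the 102, 71 were above 0 (69.6%, against 80% of the 60 genes and 50.4% of all genes), with a median of 0.09. At an unadjusted p under 0.05, 11 were higher (10.8%, against 20% of the 60 genes and 8.33% of all genes) and 0 lower. Their summed level differed by 16.6%, 3.00% and 6.54% in lines 3, 4 and 5. There was 1 call higher (0.98%, against 0.963% of all genes) and 0 lower, so the calls were at the background. The called gene was Znhit3, which takes part in box C/D snoRNP assembly: it was at 51.5, 47.2 and 50.6 CPM without doxycycline and 73.2, 71.4 and 72.5 CPM with it. It rose from 49.8 ± 2.27 to 72.3 ± 0.894 CPM (SD, n = 3 each; log2 fold change 0.54 with SE 0.11, adjusted p in edgeR = 0.0378). The call was lost with the line as a block (edgeR adjusted p = 0.075) and with the offsets (log2 fold change 0.30, edgeR adjusted p = 0.195). It was also lost when any library but the treated one of line 3 was left out (adjusted p in edgeR = 0.0521 to 0.261). Myo19 on the opposite strand shares 13.0% of its exonic bases. All libraries with doxycycline lay above all without for 30 of the 102 genes (29.4%, against 11.3% of all genes) and below for 1. By role, of these other genes none of RNA polymerase I, the small subunit, the large subunit or the exonucleases passed.

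Promoters of the group were searched for 2 short motifs on both strands, in windows of 300 bases around the start site (RefSeq, GRCm38.p6), which were found for 52 of the 60 genes. The E-box CACGTG, the site that MYC is known to bind, was in 12 of the 52 windows (23.1%), against 11.4% of the 10441 tested genes with a window. The letters CTTCCG, the core of sites for ETS-type factors, were in 32 of the 52 (61.5%), against 34.3% of those tested genes. This second motif was chosen after some of the sequences had been seen. A match is a string of letters and does not show binding. Upstream stretches free of annotated exons are printed for Nop10, the gene that passed, for Nip7, whose groups did not overlap, and for Nop2 and Rrn3, which hold E-boxes and whose log2 fold changes were 0.18 and 0.03. Letters run 5′ to 3′ on the gene's strand, and capitals mark the matches to either motif.
Nop10, chr2:112261676-112261925, plus strand: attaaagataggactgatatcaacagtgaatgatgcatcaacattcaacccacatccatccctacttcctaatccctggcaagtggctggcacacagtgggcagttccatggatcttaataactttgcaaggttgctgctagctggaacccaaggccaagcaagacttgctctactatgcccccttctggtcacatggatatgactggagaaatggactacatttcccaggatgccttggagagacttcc
Nip7, chr8:107056690-107056876, plus strand: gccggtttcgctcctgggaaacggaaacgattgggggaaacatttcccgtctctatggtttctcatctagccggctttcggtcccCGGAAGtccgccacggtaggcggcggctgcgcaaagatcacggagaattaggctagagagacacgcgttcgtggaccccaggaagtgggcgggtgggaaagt
Nop2, chr6:125131633-125131882, plus strand: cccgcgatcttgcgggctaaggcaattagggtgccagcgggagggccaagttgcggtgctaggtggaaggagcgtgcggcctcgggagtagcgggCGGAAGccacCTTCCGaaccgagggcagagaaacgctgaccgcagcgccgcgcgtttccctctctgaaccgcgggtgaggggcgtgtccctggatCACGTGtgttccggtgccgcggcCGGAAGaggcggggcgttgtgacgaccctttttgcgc
Rrn3, chr16:13780449-13780698, plus strand: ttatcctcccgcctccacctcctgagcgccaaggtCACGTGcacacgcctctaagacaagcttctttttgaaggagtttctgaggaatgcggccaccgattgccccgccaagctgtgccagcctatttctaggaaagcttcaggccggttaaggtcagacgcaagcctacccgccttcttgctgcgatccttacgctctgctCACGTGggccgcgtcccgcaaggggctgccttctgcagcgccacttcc
The stretch of Nop10 ends 1 letter short of a CTTCCG that crosses its start site, and so does that of Rrn3. Genes with an E-box in the window were among those whose groups did not overlap (Imp4, Ltv1, Pno1 and Wdr43) and among those whose groups did (Nle1, Nmd3, Nop2, Pes1, Rrn3, Tsr1, Utp20 and Utp4).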

How the data were processed

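RNA of 6 libraries was read as whole-number counts per gene, as deposited by the authors without normalization. The submitters' processing notes name STAR and HTSeq, beside CASAVA, Picard, bedtools, DESeq2 and R 3.3.0, on build mm10. For other versions, the annotation release and the strand setting, values were not given in the sources used here. Without strand, reads of overlapping genes on opposite strands cannot be told apart. The 5 rows that name no gene (43.7% to 47.7% of reads) were left out. Symbols, coordinates and lengths came from GENCODE M21 on the same build (48058 identifiers with a symbol).

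The main test was edgeR 4.0.16 in R 4.3.3 (filterByExpr, TMM, quasi-likelihood F test over all genes, Benjamini-Hochberg). SE was taken as the fold change on the log2 scale over the root of F. CPM used TMM-scaled library sizes, and ratios within a line had 0.5 CPM added. Nothing shows that libraries came from separate cultures, so p-values of the main test measure the spread between lines. In fits with a term for the line they rest on how unevenly the lines responded. Line numbers pair the samples because same-numbered libraries are 1 stable line; deviations from group means correlated at r = 0.0048, 0.0674 and 0.0276 within lines 3, 4 and 5 and at -0.102 to 0.067 between lines. Alternatives were RLE scaling, no filter, the line as replicate block, left-out libraries and lines, DESeq2 1.42.0, limma-voom (limma 3.58.1), a threshold of 0.1, and length and GC offsets (mgcv 1.9.3 smooths). A minimum of 5 CPM, total-count scaling, and the overlap counts were added after the data were seen. The procedures were also run on simulated counts. For the doxycycline tests these held no differences between lines, so they do not show how those tests behave when lines are uneven. The genes, lists and tests were chosen with earlier results of these data known. Named genes were those called, up to 4 of smallest p per role, the 5 of highest level per length, 4 of smallest p between lines, 2 for the line 3 response, and called other pathway genes; further members are named after their values were seen.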

Additional observations from a re-analysis of the deposited data

How the results depend on the processing

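The number of the 60 genes called with doxycycline was 1 (Nop10) and depended on the processing. It was 0 with the replicate block, 0 with the length and GC offsets, 0 with both, 0 when only genes with a mean of at least 5 CPM were fitted, and 0 with total counts without TMM. It was 2 without the filter on low counts, 2 at an adjusted p under 0.1 (Nop10 and Mrto4 in both), and 4 with DESeq2. Leaving out a library or a line gave 0 to 4, where the 4 (Nop58, Nop10, Pno1 and Mrto4) came without the treated library of line 3, a fit that called 10.4% of all genes. RLE scaling, limma-voom and the fit without line 3 called 1. With the line as a block no other call among the 60 changed. The median log2 fold change stayed above 0 in every alternative run, from 0.08 to 0.15. The number of genes whose treated libraries were all higher was 17 with RLE scaling and 17 to 27 when a library was left out, while the share of all genes in that order was 12.9% to 21.7%. Between lines, 0 genes were called with all libraries. When a library was left out, its line rested on 1 library. Its line term could then not be told apart from an uneven response to doxycycline. For the response of line 3, 2 genes were called without the filter on low counts. Npm1 was lower in every fit, with its call lost without the untreated library of line 3 or without line 4 (edgeR adjusted p = 0.0937 and 0.177). The cause of these changes was not tested. Each of the 60 genes had at least 148 counts in each library, and each line had 1 library per condition.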
